A study of Mus musculus with 2 samples.

Results

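The desmosome genes Dsg2, Dsg3, Dsc2, Dsc3, Pkp1, Pkp2, Pkp3, Jup, Dsp and Perp were followed through the developing mouse foregut. They were chosen by name, as 10 of the 19550 genes counted, and their levels were read in each labelled cell class by region and stage, with squamous set against columnar epithelium. The cells came from untreated wild type C57BL/6 mice and were taken from the esophagus, the gastroesophageal squamo-columnar junction (GE-SCJ) and the stomach at embryonic day 15 (E15), day 19 (E19), pup day 2 and the adult age of 8 weeks. Each combination of region and stage carried its own oligonucleotide tag, 11 tags were present, adult stomach was not analysed here, and all cells went through 1 pooled 10x Genomics 3′ gene expression library with its tag library. According to the labels 6 mice stood behind E15, 2 behind E19, 2 behind the pup and 3 behind the adult, while the methods give another number. Mice of a tag cannot be told apart, so every region and stage was 1 pooled sample without replicates and no difference was tested.

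The desmosome is a spot-like junction that rivets neighbouring cells together and anchors their keratin filaments. Desmogleins (Dsg) and desmocollins (Dsc) are cadherins that span the membrane and bind those of the next cell. Inside the cell, plakoglobin (Jup) and the plakophilins (Pkp), which are armadillo proteins, hold the cadherin tails, and desmoplakin (Dsp) links this plaque to keratin. Perp is a tetraspan membrane protein of desmosomes and a target of p63, the regulator of stratified epithelia. Simple epithelia are known to use mainly Dsg2, Dsc2 and Pkp2, whereas stratified epithelia add further desmogleins and desmocollins as well as Pkp1.

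Levels are given as CPM, the unique molecular identifiers (UMIs) of a gene in a group's cells per 1000000 UMIs of that group. The values in parentheses are exact 95% Poisson intervals. Log2 ratios and folds were formed after 1 UMI was added to each sum. Their 95% intervals come from the exact binomial method applied to the sums with that UMI, which draws low sums toward equal counts. Shares carry Clopper-Pearson intervals. All intervals cover counting error only. UMIs of the 3′ assay were not divided by transcript length, so levels of different genes are not ranked. A gene was counted as higher or lower from a 2-fold ratio on, and beside the count for each comparison stands the percentage of all genes with at least 50 UMIs over both groups that passed the same ratio in the same direction.

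The pool held 7808 cells and 107865155 UMIs, with 143 to 1403 cells and 2302227 to 20070615 UMIs per tag, and all 7808 barcodes were distinct. There were 730 squamous and 1540 columnar cells. The squamous groups used below held 34 to 232 cells and the columnar groups 53 to 366 cells, apart from 19 columnar cells of the adult GE-SCJ. The squamous class joined 2 labels of the deposited annotation, of which the second held 40 cells, 29 of them in the pup esophagus. Squamous markers (Trp63, Krt5, Krt14, Krt15, Krt13 and Col17a1) summed to 5598 to 31390 CPM in the squamous groups and to 57.2 to 93.7 CPM in the columnar groups of GE-SCJ and stomach at E15, E19 and pup. Columnar markers (Krt8, Krt18, Agr2, Cldn18, Tspan8, Gata4 and Foxa2) summed to 3936 to 7152 CPM in those columnar groups and to 209 to 2635 CPM in the squamous groups. The 10 genes held 0.0640% of all UMIs, and squamous cells, with 9.93% of all UMIs, contributed 53.3% of theirs.

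The RefSeq promoter table (GRCm38.p6) matched 2 of the 10 members, Dsp and Jup. Both are shown because they are the members that the table held, and their levels also went together over the epithelial groups, with a Pearson's r of 0.96. The 250 bases before each start are written 5′ to 3′ on the gene's strand, at chr13:38151044-38151293 on the plus strand for Dsp and at chr11:100397791-100398040 on the minus strand for Jup, with matches to the GC box (GGGCGG, or CCGCCC on the other strand) in capitals.
Dsp: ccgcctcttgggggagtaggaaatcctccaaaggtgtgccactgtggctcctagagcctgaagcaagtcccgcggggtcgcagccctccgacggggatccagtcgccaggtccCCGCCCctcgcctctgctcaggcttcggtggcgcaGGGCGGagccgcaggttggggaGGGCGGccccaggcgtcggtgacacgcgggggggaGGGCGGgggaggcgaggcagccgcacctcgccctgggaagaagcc
Jup: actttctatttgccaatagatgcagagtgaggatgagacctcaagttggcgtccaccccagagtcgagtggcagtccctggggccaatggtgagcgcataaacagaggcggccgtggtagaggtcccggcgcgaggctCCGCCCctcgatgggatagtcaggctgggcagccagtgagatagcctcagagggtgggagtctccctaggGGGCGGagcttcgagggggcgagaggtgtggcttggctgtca
The window of Dsp held 4 GC boxes and that of Jup held 2, and 32.7% of the 32851 promoters of the table held at least 1 in a window of the same length. Neither window held the TATA box TATAAA (12.4% of promoters), the grainyhead site AACCGGTT (0.116%) or the E-box CAGGTG (17.2%), each searched on both strands.

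The members fell into those many times higher in squamous cells, those found in both epithelia, and those at least 2-fold lower in squamous cells at some stages. Within the GE-SCJ, where both epithelia shared a tag, Dsg3, Dsc3 and Pkp1 had the largest ratios, followed by Perp and then by Dsp, Jup and Pkp3, while Dsg2 and Pkp2 were level or lower in squamous cells. At E15, 7 of 10 members were at least 2-fold higher in squamous than in columnar cells, against 4.42% of genes, and 1 was lower, against 6.95%. At E19, 6 were higher, against 8.85% of genes, and 0 lower, against 12%. In the pup, 7 were higher, against 10.4%, and 2 lower, against 16.2%. The members' median log2 ratio was 1.76, 1.68 and 1.96 at the 3 stages, beside −0.08, −0.09 and −0.03 over all genes. Dsc3 and Pkp2 at E15, and Dsg3 and Dsc3 at E19, had fewer than 50 UMIs over both groups, and in the pup no member did. Among the 8 members with at least 50 UMIs, 6 were higher and 0 lower at E15, and 4 were higher and 0 lower at E19.

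Dsg3, a desmoglein of stratified epithelia, stood at 59.7 CPM (44.9 to 77.9) in GE-SCJ squamous cells at E15, 74.2 (53.0 to 101) at E19, 194 (162 to 231) in the pup and 309 (282 to 338) in the adult. GE-SCJ columnar cells held 0, 4, 7 and 1 UMIs of Dsg3 at these stages. Their highest level, 2.02 CPM, lay below the 3.19 CPM (1.65 to 5.57) of immune cells, which do not build desmosomes and serve here as a reference class. Immune levels are pooled over all stages and regions unless a stage is named. Summed over the members, immune cells held 130.7 CPM. Stromal (87.7 CPM), smooth muscle (108.8) and neural cells (111.6) held less, and endothelial (188.1) and second stromal cells (204.8) more. The immune level is therefore not a lower limit, and the part of free RNA in it was not tested. At E15 the columnar sum of 0 UMIs allows up to 2.27 CPM. The measured squamous level was 26.4-fold above that, with a log2 ratio of 6.33 (3.79 to 11.7). The log2 ratio was 6.77 (5.43 to 8.47) at E19 and 7.65 (6.63 to 8.89) in the pup.

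Dsc3, a desmocollin of stratified epithelia, followed another course in time. It stood at 11.1 CPM (5.30 to 20.3) in GE-SCJ squamous cells at E15 and 9.28 (3.01 to 21.7) at E19, from 10 and 5 UMIs, and at 112 (88.1 to 140.4) in the pup and 219.7 (197 to 244) in the adult. GE-SCJ columnar cells held 0, 3, 6 and 0 UMIs. At E15 the measured squamous level was 4.88-fold above the level of 3 UMIs in columnar cells, with a log2 ratio of 4.01 (1.23 to 9.44). In the pup the log2 ratio was 7.05 (5.94 to 8.42). The intervals of the embryonic squamous levels of Dsc3 did not overlap those of the pup and adult.

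Pkp1, the plakophilin of stratified epithelia, was at 116 CPM (94.98 to 141), 134 (105 to 168), 167 (138 to 201) and 537 (501 to 575) in GE-SCJ squamous cells from E15 to the adult. Columnar cells of the GE-SCJ held 4.53, 4.75, 1.95 and 2.02 CPM, all under the 7.44 CPM (4.94 to 10.8) of immune cells. These columnar levels rest on 6, 34, 16 and 1 UMIs, and their difference from the immune level was not tested. The log2 ratio was 4.47 (3.38 to 5.82) at E15, 4.79 (4.19 to 5.42) at E19 and 6.35 (5.60 to 7.17) in the pup.

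Perp, Dsp and Jup were found in both epithelia and were more than 2-fold higher in squamous cells of the GE-SCJ at each stage. Perp stood at 605, 713 and 1342 CPM in squamous and at 66.5, 99.9 and 167 CPM in columnar cells at E15, E19 and pup, with log2 ratios of 3.17 (2.85 to 3.51), 2.84 (2.65 to 3.02) and 3.01 (2.89 to 3.13). From E15 to the pup the level of Perp was thus higher at each later stage in both classes, with a ratio between 7.14 and 9.01-fold, whereas the adult had 2208 CPM in squamous and 131 CPM in its 19 columnar cells. Dsp was at 634, 577 and 557 CPM in squamous and 176, 172 and 147 CPM in columnar cells, with log2 ratios of 1.84 (1.62 to 2.07), 1.75 (1.56 to 1.93) and 1.92 (1.75 to 2.09). Jup was at 263, 332 and 300.1 CPM against 93.7, 109 and 113 CPM, with log2 ratios of 1.49 (1.17 to 1.81), 1.62 (1.37 to 1.85) and 1.42 (1.19 to 1.64).

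Pkp3, a plakophilin of simple and stratified epithelia alike, was 3.21-fold higher in squamous cells at E15, 1.84-fold at E19 and 3.99-fold in the pup, from 61.9, 31.6 and 67.2 CPM against 18.9, 18.0 and 17.1 CPM. Dsc2, the most widespread desmocollin, was closer between the epithelia, at 76.3, 77.9 and 71.7 CPM in squamous and 58.9, 44.8 and 54.9 CPM in columnar cells. The interval of its log2 ratio included 0 at E15 (−0.11 to 0.86) and in the pup (−0.05 to 0.84) but not at E19 (0.33 to 1.29).

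Dsg2, the most widespread desmoglein, was at 117, 119 and 59.7 CPM in squamous and at 109, 99.4 and 131 CPM in columnar cells. Its log2 ratio was 0.11 (−0.26 to 0.48) at E15, 0.28 (−0.11 to 0.65) at E19 and −1.09 (−1.58 to −0.64) in the pup, and only the pup interval left out 0. Pkp2, the plakophilin of simple epithelia, was at 1.11 CPM (1 UMI), 22.3 CPM (12 UMIs) and 2.99 CPM (2 UMIs) in squamous cells, against 27.2, 30.4 and 21.5 CPM in columnar cells. Its log2 ratio was −3.66 (−6.76 to −1.70), −0.34 (−1.27 to 0.46) and −2.27 (−4.56 to −0.70). The GE-SCJ squamous cells of E19, where Pkp2 came close to its columnar level, also had the highest summed columnar markers of the squamous groups, 2635 CPM beside 1649 at E15 and 897 in the pup, and the part of these markers in the result was not tested. Over all groups, 35 of 730 squamous cells held more columnar than squamous marker UMIs when Krt13, Krt8 and Krt18 were not counted. Leaving such cells out kept 32 of the 34 GE-SCJ squamous cells of E19, so the group hardly changed, and the E19 log2 ratio of Pkp2 was then −0.41.

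The adult GE-SCJ had too few columnar cells for a count, and its values are given as they stand. Dsg2 was 8.23-fold lower in squamous than in columnar cells, at 16.8 CPM (10.9 to 24.5) against 141 (110.1 to 178). Dsp was 8.36-fold and Perp 16.6-fold higher in squamous cells. Dsc2, at 225 CPM (202 to 249.7) against 56.5 (37.5 to 81.6), was 3.85-fold higher.

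**Figure D1:**
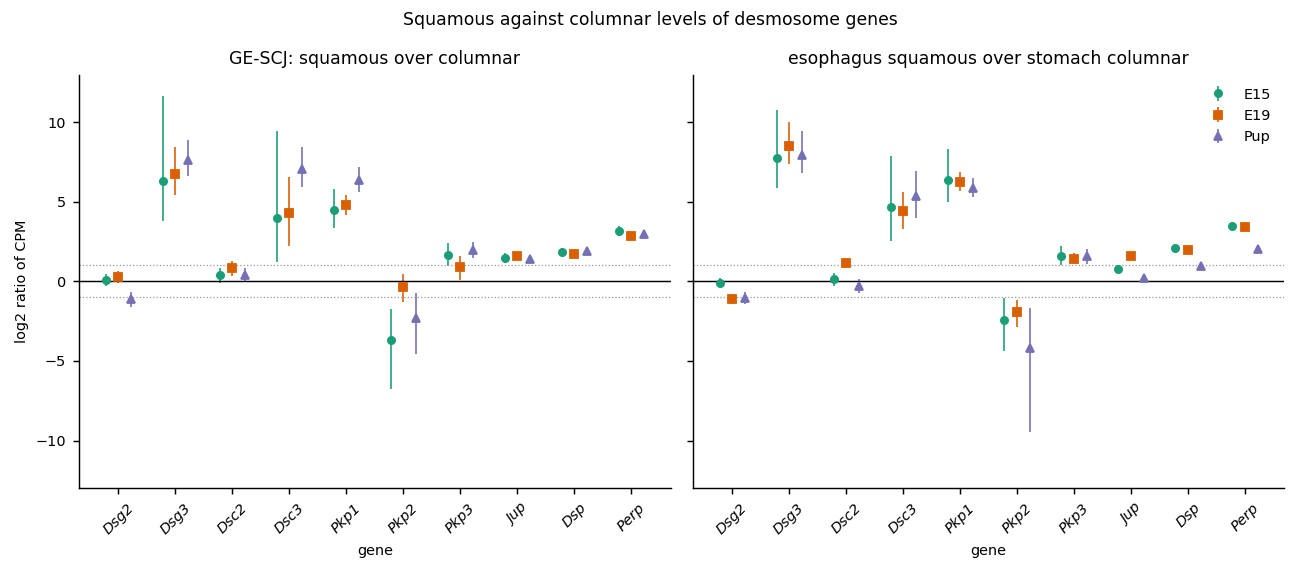
Log2 ratio of CPM, squamous over columnar, for the 10 desmosome genes at E15, E19 and pup, within the GE-SCJ and between esophagus and stomach. Bars are 95% intervals for counting error after 1 UMI was added to each sum, dotted lines mark a 2-fold ratio, and each class is 1 pooled sample. Dsg3, Dsc3 and Pkp1 lie highest, from 4.01 upwards, and Pkp2 lies below 0 throughout.

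With each epithelium taken from its own organ, the members were ordered much the same. At E15, 6 members were higher in esophageal squamous than in stomach columnar cells, against 8.68% of genes, and 1 lower, against 8.45%. At E19, 8 were higher, against 10.4%, and 2 lower, against 12.3%. In the pup, 5 were higher, against 12.6%, and 2 lower, against 24.6%. Medians over the members were 1.85, 1.79 and 1.27 on the log2 scale, beside 0.05, −0.05 and −0.22 over all genes. Dsc3 alone had fewer than 50 UMIs, at each stage. Among the 9 other members, 5, 7 and 4 were higher and 1, 2 and 2 lower at E15, E19 and pup.

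Dsg3 was at 109 CPM (89.3 to 132), 232 (210 to 256) and 129.5 (108 to 154) in the esophagus at E15, E19 and pup, and had 1, 5 and 5 UMIs in the stomach. Pkp1 was at 85.5 CPM (68.2 to 106), 211 (189 to 234) and 148 (125 to 174), against 0.777, 2.72 and 2.45 CPM in the stomach. Dsc3 stood at 12.2, 19.3 and 20.6 CPM in the esophagus and at no more than 0.838 CPM in the stomach. At E15, E19 and pup, columnar cells of both regions thus had these 3 genes at point values below those of immune cells pooled over all stages. The difference was not tested.

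Perp was 11.1-fold, 10.7-fold and 4.18-fold higher in the esophagus than in the stomach at the 3 stages, and Dsp 4.20-fold, 3.88-fold and 1.92-fold. Jup differed less between the organs, with log2 ratios of 0.80 (0.54 to 1.05), 1.62 (1.48 to 1.77) and 0.21 (−0.06 to 0.46). Dsg2 had ratios of −0.11 (−0.43 to 0.20) at E15, −1.13 (−1.43 to −0.84) at E19 and −1.04 (−1.45 to −0.66) in the pup, so it was level first and lower in the esophagus later. Pkp2 had 3, 13 and 0 UMIs in the esophagus, against 22.01, 31.5 and 18.5 CPM in the stomach. In the pup esophagus 0 UMIs allow 3.08 CPM, and the measured level of Pkp2 in the stomach was 5.99-fold above that.

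In the pup esophagus, 29 of 85 squamous cells carried the second squamous label. With the first label alone, an alternative chosen after the data were seen, the log2 ratios over stomach columnar cells in the pup were 1.54 for Dsp (0.94 with both labels), 2.74 for Perp (2.06), 0.54 for Jup (0.21) and −0.70 for Dsg2 (−1.04). Dsp then passed the 2-fold ratio and Dsg2 no longer did.

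**Figure D2:**
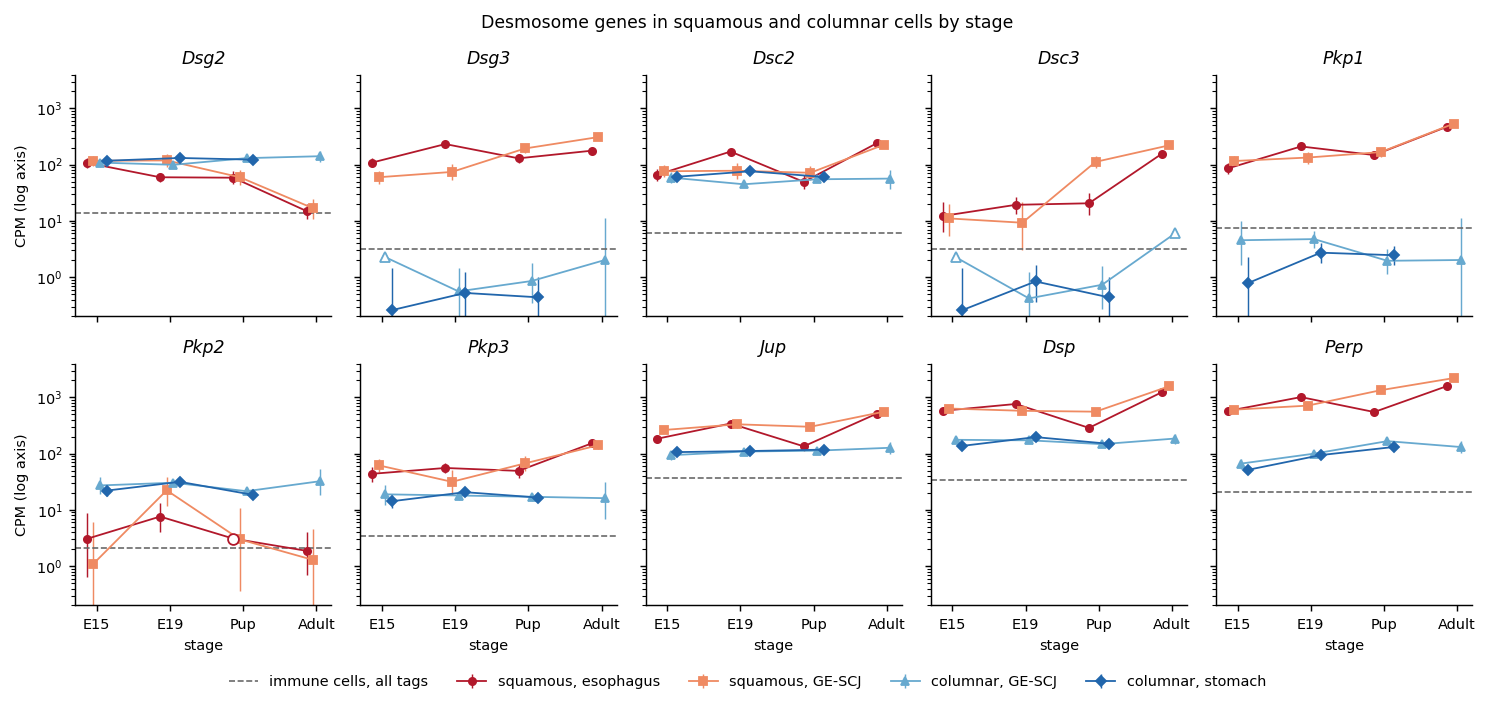
CPM of each member on a logarithmic axis by stage, in squamous cells of the esophagus and GE-SCJ and columnar cells of the GE-SCJ and stomach, 1 pooled sample per point, with exact 95% Poisson bars cut at the foot of the axis. Open symbols mark sums of 0 UMIs, drawn at the level of 3 UMIs, and the dashed line is the level in immune cells. In both squamous series Dsc2, Dsc3, Pkp1, Pkp3, Jup, Dsp and Perp are highest in the adult and Dsg2 is lowest there, at 14.96 and 16.8 CPM.

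Over development, most members had their highest squamous level in the adult. Between E15 and the adult, 7 of 10 members were at least 2-fold higher in the adult esophagus, against 10.3% of genes, and 1 was lower, against 21.9%. In the GE-SCJ, 8 were higher, against 10.2%, and 1 lower, against 21.2%. Medians over the members were 1.48 and 1.42 on the log2 scale, beside −0.44 and −0.39 over all genes. In the esophagus the members summed to 1762 CPM at E15 and to 4576 CPM in the adult, and to 1945 and 5779 CPM in the GE-SCJ. When adult cells were split by their keratins, as described below, the basal range summed to 1450 CPM in the esophagus and 2422 CPM in the GE-SCJ. The suprabasal range summed to 6566 and 7338 CPM. The part of this mix of cells in the stage ratios was not tested.

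Dsc3 had the largest of these ratios, 11.9-fold in the esophagus (12.2 against 158 CPM) and 18.1-fold in the GE-SCJ (11.1 against 219.7 CPM). Pkp1 was 5.50-fold and 4.59-fold higher in the adult than at E15 in the 2 regions, and Pkp3 3.41-fold and 2.25-fold. Dsc2 was 3.60-fold and 2.91-fold higher. The plaque genes Jup (2.79-fold and 2.10-fold) and Dsp (2.15-fold and 2.47-fold) and the membrane gene Perp (2.78-fold and 3.64-fold) showed smaller ratios. Dsg3 was 1.61-fold higher in the esophagus and 5.09-fold higher in the GE-SCJ.

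Dsg2 was the member that was lower in the adult. It stood at 108 CPM (88.3 to 131), 59.7 (48.7 to 72.4), 58.6 (44.4 to 75.9) and 14.96 (11.0 to 19.8) in the esophagus from E15 to the adult, and at 117 (96.0 to 142), 119 (91.5 to 152), 59.7 (42.7 to 81.3) and 16.8 (10.9 to 24.5) in the GE-SCJ. The adult was 7.13-fold below E15 in the esophagus and 6.80-fold below it in the GE-SCJ. The adult intervals did not overlap those of any earlier stage in either region, and they did overlap that of immune cells, 13.6 CPM (10.1 to 17.8). Columnar cells of the adult GE-SCJ had Dsg2 at 141 CPM.

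The steps between stages were not alike in the 2 regions. In the esophagus, 4 members were at least 2-fold higher at E19 than at E15, against 3.87% of genes, and 0 lower, against 5.47%. These were Dsg3 (2.12-fold), Dsc2 (2.55-fold), Pkp1 (2.44-fold) and Pkp2, which rests on 13 and 3 UMIs. In the GE-SCJ, 1 member passed this ratio, against 6.04% of genes, namely Pkp2 on 12 and 1 UMIs, and 0 were lower, against 7.57%.

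From E19 to the pup, 0 members were 2-fold higher in the esophagus, against 7.8% of genes, and 4 were lower, against 20%. These were Dsp (2.65-fold), Dsc2 (3.403-fold), Jup (2.53-fold) and Pkp2 (2.47-fold against the level of 3 UMIs, from 0 and 13 UMIs). With the first squamous label alone, the log2 ratios of this step were −0.85 for Dsp (−1.41 with both labels), −1.10 for Dsc2 (−1.77), −1.03 for Jup (−1.34), −0.11 for Dsg3 (−0.83) and −0.25 for Perp (−0.88). In the GE-SCJ, 3 members were higher in the pup than at E19, against 4.51% of genes: Dsc3 (10.2-fold), Dsg3 (2.57-fold) and Pkp3 (2.06-fold). Pkp2 was the 1 lower member, on 2 and 12 UMIs, against 8.89%.

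From the pup to the adult, 8 members were counted as higher in the esophagus, against 21.2% of genes, and 7 of these had at least 50 UMIs. The other was Pkp2, on 6 and 0 UMIs. Its adult level was 0.606 times the level that 0 UMIs allow in the pup, so its direction is not settled. Dsg2 was the 1 lower (3.91-fold), against 11.1%. With the first label alone 5 members were higher, and Dsg3 had a log2 ratio of −0.33 in place of 0.44. In the GE-SCJ, Dsp (2.81-fold), Dsc2 (3.08-fold), Pkp1 (3.19-fold) and Pkp3 (2.06-fold) were the 4 higher members, against 11% of genes. Dsg2 (3.52-fold) and Pkp2 were the 2 lower, against 8.32%. Pkp2 rests on 2 UMIs in each group, so its direction is not settled here either.

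From one stage to the next, columnar levels mostly stayed within a 2-fold ratio, and the whole span from E15 to the pup was not counted. In the stomach, 1 member was 2-fold higher at E19 than at E15, against 3.62% of genes, and 0 lower, against 3.85%. This was Pkp1, on 26 and 3 UMIs and at both stages under its immune level pooled over all stages. From E19 to the pup 0 were higher, against 6.06%, and 0 lower, against 11.1%. In the GE-SCJ 0 members were higher at E19 than at E15, against 2.46% of genes, and 0 lower, against 5.21%. From E19 to the pup 0 were higher, against 6.38%, and 1 lower, against 10.7%, which was Pkp1 with 16 and 34 UMIs.

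From E15 to the pup, Perp alone among the members was higher in columnar cells at each later stage of both regions with intervals apart. It stood at 51.3 CPM (44.4 to 58.9), 94.2 (88.1 to 101) and 131 (125 to 138) in the stomach at E15, E19 and pup, and at 66.5 (53.3 to 81.9), 99.9 (92.8 to 108) and 167 (158 to 176) in the GE-SCJ. Over both regions and the 3 stages, Jup lay between 93.7 and 118 CPM, Dsp between 137 and 197, and Dsg2 between 99.4 and 131. Dsc2 ranged from 44.8 to 76.3 CPM, Pkp2 from 18.5 to 31.5 and Pkp3 from 14.2 to 20.6.

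Shares among related members do not depend on the total of a group. Dsg3 made up 50.2% (43.3 to 57.1) of the UMIs of Dsg2 and Dsg3 in esophageal squamous cells at E15, 79.6% (75.8 to 83.01) at E19, 68.9% (61.6 to 75.5) in the pup and 92.2% (89.8 to 94.2) in the adult. In GE-SCJ squamous cells it was 33.8% (26.5 to 41.6), 38.5% (29.1 to 48.5), 76.5% (69.4 to 82.6) and 94.9% (92.6 to 96.6). The esophagus thus had the larger Dsg3 share at E15 and E19, with intervals apart at both stages. GE-SCJ squamous cells of E19 had the highest summed columnar markers of the squamous groups, as given above. The part of columnar signal in these shares was not tested. With the first squamous label alone the share of the pup esophagus was 75.0% (67.8 to 81.4). The adult share depends on the genes set beside Dsg3: with Dsg1a and Dsg1b counted too, Dsg3 held 37.9% (35.5 to 40.5) in the adult esophagus and 59.0% (55.5 to 62.4) in the adult GE-SCJ. In the columnar groups of GE-SCJ and stomach at E15, E19 and pup it was 0 to 0.651%.

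Dsc3 was 15.6% (8.32 to 25.6), 10.2% (7.09 to 14.0), 29.4% (18.98 to 41.7) and 39.5% (36.8 to 42.3) of the UMIs of Dsc2 and Dsc3 in esophageal squamous cells from E15 to the adult. The GE-SCJ had 12.7% (6.24 to 22.1), 10.6% (3.55 to 23.1), 61.0% (51.8 to 69.6) and 49.4% (45.6 to 53.2). In the GE-SCJ both later shares lay apart from both embryonic ones, and in the esophagus the adult share did. In the same columnar groups the share was 0 to 1.32%. The adult squamous share depends on the genes counted. With Dsc1 counted too, Dsc3 held 27.7% (25.7 to 29.9) in the adult esophagus, beside 29.4% in the pup, and 41.3% (37.9 to 44.7) in the adult GE-SCJ.

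The plakophilins differed in makeup between the epithelia. In squamous cells Pkp1 made up 64.6% to 79.1% of the UMIs of Pkp1, Pkp2 and Pkp3 over both regions and all stages, Pkp3 16.8% to 34.6% and Pkp2 0% to 11.9%. In columnar cells of the GE-SCJ and stomach at E15, E19 and pup, Pkp2 made up 49.3% to 59.4%, Pkp3 33.9% to 44.2% and Pkp1 2.10% to 8.96%. The highest squamous share of Pkp2, 11.9% (6.29 to 19.8) in the GE-SCJ at E19, had an interval below that of every columnar group.

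**Figure D3:**
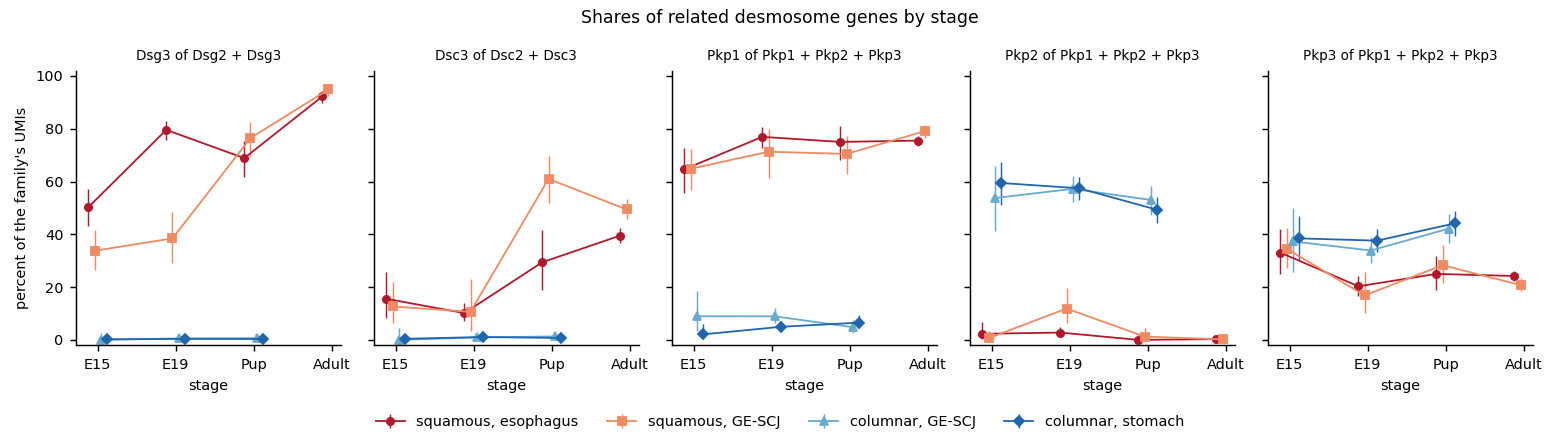
Percent of UMIs held by Dsg3 (of Dsg2 and Dsg3), Dsc3 (of Dsc2 and Dsc3) and Pkp1, Pkp2 and Pkp3 (of these 3) by stage, in squamous cells of the esophagus and GE-SCJ and columnar cells of the GE-SCJ and stomach, with exact 95% Clopper-Pearson bars. The Dsg3 share, which leaves out Dsg1a and Dsg1b, reaches 92.2% and 94.9% in the adult squamous groups, and Pkp1 and Pkp2 trade places between the epithelia.

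The share of cells with a UMI shows whether a level came from many cells or few. For this each cell was thinned to 5000 UMIs and shallower cells were left out, 130 of 730 squamous, 52 of 1540 columnar and 101 of 354 immune cells, at median depths of 11996.5, 25118 and 8266.5 UMIs. Dsg3 was seen in 29.3% of thinned esophageal squamous cells at E15 and 48.5% in the adult (37.5% and 57.3% at full depth), against 2.37% of immune cells (2.26%). Dsc3 was seen in 6.90% and 50.3% of thinned esophageal squamous cells at E15 and in the adult (10.9% and 61.2% at full depth), against 1.19% of immune cells (1.70%). Both were therefore seen in more of the adult cells. Dsg2 went the other way, from 43.1% to 5.85% in the esophagus and from 55.6% to 13.4% in the GE-SCJ (62.5% to 16.0% and 82.98% to 20.7% at full depth), against 4.74% of immune cells (8.76%).

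Within the pup esophagus, the 2 squamous labels were set side by side, with 56 cells of the first and 29 of the second. The labels came from clustering these same counts, so the values are a description. In the second label 7 of 10 members were at least 2-fold lower than in the first, against 47.8% of genes, and 0 higher, against 21.2%. The members' median log2 ratio was −2.63, beside −0.86 over all genes. Dsc2, Dsc3, Pkp2 and Pkp3 had fewer than 50 UMIs over both groups and supplied 3 of the 7 lower calls. Among the 6 members with at least 50 UMIs, 4 were lower, against the same 47.8% of genes.

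Dsg3 had 0 UMIs in the second label and stood at 221 CPM (184 to 263) in the first, 29.6-fold above the level of 3 UMIs in the second. Perp was at 84.6 CPM (58.6 to 118) against 876 (801 to 956), a log2 ratio of −3.33 (−3.87 to −2.84), and Dsp at 77.2 against 434 CPM, −2.45 (−3.03 to −1.92). Pkp1 was at 12.5 CPM against 244 CPM, −4.04 (−5.51 to −2.88) on the log2 scale. Jup and Dsg2 were the nearest between the labels, with log2 ratios of −0.98 (−1.58 to −0.41) and −0.92 (−1.85 to −0.06), apart from Pkp2 with 0 UMIs in both.

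Of the 6 squamous markers, 4 had a UMI in the second label and 6 in the first. Krt13, a keratin of mucosal squamous cells, was at 6915 CPM in the second and 1456 CPM in the first label, whereas Trp63, the gene of p63, had 0 UMIs in the second and 333 CPM in the first. Krt7, a keratin of simple and transitional epithelia, was at 5491 against 96.3 CPM. Columnar markers summed to 500.3 and 333 CPM. Among genes of the cornified envelope, Ppl (periplakin) was at 792 against 87.6 CPM and Evpl (envoplakin) at 222 against 47.3 CPM, opposite in direction to Dsp. Cdsn (corneodesmosin), with 0 UMIs in the first label, was at least 7.58-fold higher in the second. Cdh1, the cadherin of adherens junctions, was at 19.9 against 116 CPM.

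Adult squamous cells were ordered by the UMIs of the suprabasal keratins Krt13 and Krt4 as a share of these and the basal keratins Krt5, Krt14 and Krt15, and cut into 3 ranges with the same number of cells. The ranges are parts of a score and not cell types, and no member is in the score. Each held 77 cells in the esophagus and 29 in the GE-SCJ. In the esophagus the score ran from 0 to 0.182 in the basal, from 0.186 to 0.936 in the middle and from 0.943 to 1.00 in the suprabasal range. In the suprabasal range 7 members were at least 2-fold higher than in the basal range of the esophagus, against 19% of genes, and 1 lower, against 20.5%. In the GE-SCJ 6 were higher, against 20.2%, and 1 lower, against 13.6%. Medians over the members were 1.62 and 1.19, beside −0.15 and 0.04 over all genes, and Dsg2 and Pkp2 had fewer than 50 UMIs. Among the 8 other members, 7 were higher in the esophagus and 6 in the GE-SCJ, and 0 were lower in either. Median depth moved with the ranges, from 7420 UMIs per basal to 17902 per suprabasal cell in the esophagus and from 9712 to 27857 in the GE-SCJ, and its part in the ratios was not tested.

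Dsc2 had the largest ratio in favour of the suprabasal range in both regions. It stood at 10.5 CPM (4.22 to 21.6), 63.9 (47.3 to 84.4) and 404 (375 to 435) in the basal, middle and suprabasal range of the esophagus, 33.8-fold from end to end. In the GE-SCJ it stood at 18.3 (6.70 to 39.7), 107 (76.4 to 146) and 357 (318 to 399). No intervals of Dsc2 overlapped within a region.

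Dsp was at 303 CPM (262 to 347), 663 (607 to 724) and 1850 (1787 to 1914) in the esophagus, and at 660.2 (575 to 754), 1294 (1182 to 1415) and 2037 (1942 to 2135) in the GE-SCJ. Perp was 4.92-fold and 4.05-fold higher in the suprabasal than in the basal range of the 2 regions, and Jup 4.90-fold and 2.54-fold. Pkp1 was 3.38-fold and 2.51-fold higher, and Pkp3 2.79-fold and 2.07-fold. The plaque genes and Perp thus pointed the same way in both regions.

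Dsg3 was 2.11-fold higher in the suprabasal range of the esophagus and 1.64-fold in the GE-SCJ. Dsc3 was at 108 CPM (84.4 to 136), 196 (166 to 229) and 160.1 (142 to 179.9) over the ranges of the esophagus and at 173 (131 to 225), 337 (281 to 401) and 186 (158 to 217) in the GE-SCJ, with its highest value in the middle of both. The share of Dsc3 in the UMIs of Dsc2 and Dsc3 was 91.1% (82.6 to 96.4), 75.4% (68.8 to 81.2) and 28.4% (25.6 to 31.3) in the esophagus, and 90.5% (80.4 to 96.4), 75.9% (68.7 to 82.2) and 34.3% (30.0 to 38.8) in the GE-SCJ. Of these 2 genes Dsc3 thus held most UMIs in the basal and Dsc2 in the suprabasal range of both regions. With Dsc1 counted too, Dsc2 held 46.5% (44.0 to 49.0) of the UMIs of the 3 desmocollins in the suprabasal range of the esophagus and 50.8% (46.7 to 54.8) in the GE-SCJ, and Dsc1 held 35.1% (32.7 to 37.6) and 22.8% (19.5 to 26.4).

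Dsg2 was highest in the basal range, at 41.9 CPM (27.9 to 60.6) in the esophagus and 54.8 (32.5 to 86.6) in the GE-SCJ. The suprabasal range held 6.20 CPM (3.10 to 11.1) and 1.18 (0.0298 to 6.56), the latter from 1 UMI.

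**Figure D4:**
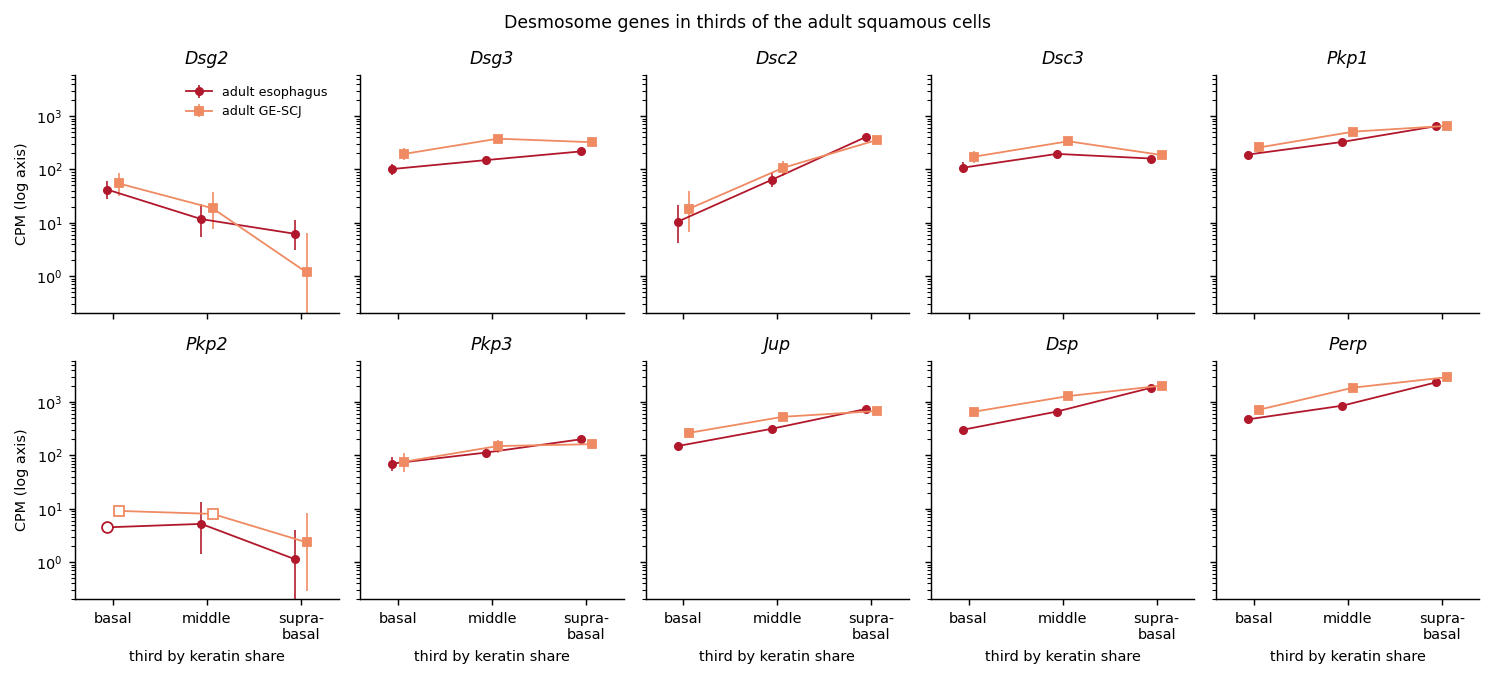
CPM of each member on a logarithmic axis in the basal, middle and suprabasal range of adult squamous cells, ordered by their keratins, for the esophagus (77 cells per range) and the GE-SCJ (29 cells per range). Bars are exact 95% Poisson intervals cut at the foot of the axis, and open symbols mark 0 UMIs, drawn at the level of 3 UMIs. Dsc2 climbs from 10.5 to 404 CPM in the esophagus, while Dsg2 descends from 41.9 to 6.20 CPM.

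A list of other desmosome and envelope genes held 8 measured genes, Dsc1, Dsg1a, Dsg1b, Pkp4, Ppl, Evpl, Cdsn and Kazn, of which those with 50 UMIs over both groups were counted. Dsc1 and Dsg1a, a desmocollin and a desmoglein of upper layers, were at 169.5 and 179 CPM in adult esophageal squamous cells and at 0 UMIs at E15, at least 55.5-fold and 58.5-fold higher. In the basal range of the adult esophagus they had 0 and 1 UMIs, against 306 and 319.7 CPM in the suprabasal range. Between E15 and the adult, 6 of 8 counted genes were higher and 1 lower (against 10.3% and 21.9% of all genes) in the esophagus and 5 of 7 counted genes were higher and 1 lower (against 10.2% and 21.2% of all genes) in the GE-SCJ. Between the basal and suprabasal ranges, 6 of 7 counted genes were higher and 1 lower (against 19% and 20.5% of all genes) in the esophagus and 5 of 5 counted genes were higher and 0 lower (against 20.2% and 13.6% of all genes) in the GE-SCJ. Pkp4, a more distant relative of the plakophilins, was the gene lower in the adult, from 223 to 51.1 CPM and from 116 to 34.1 CPM. It was also lower in the suprabasal range, with log2 ratios of −1.29 (−1.89 to −0.69) in the esophagus and −1.51 (−2.46 to −0.57) in the GE-SCJ. In the GE-SCJ ranges Pkp4 had 19 and 21 UMIs and was therefore not counted.

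In a list of 13 keratins and adherens junction genes, 6 of 11 counted genes were higher and 1 lower (against 4.42% and 6.95% of all genes) in GE-SCJ squamous over columnar cells at E15, 8 of 13 counted genes were higher and 0 lower (against 8.85% and 12% of all genes) at E19 and 7 of 13 counted genes were higher and 2 lower (against 10.4% and 16.2% of all genes) in the pup. Krt5, the partner of Krt14 in basal cells, had log2 ratios of 6.83, 6.76 and 7.05. Krt5, Krt14, Krt15 and Krt13 are squamous markers and Krt8 and Krt18 columnar markers, and the labels came from clustering these same counts. Their ratios thus follow the labels, and the counts of this list are a description only. The adherens junction genes Cdh1 (0.18, 0.44 and 0.01) and Ctnnd1 (0.11, 0.10 and −0.10) stayed within a 2-fold ratio, where Dsp was at 1.84, 1.75 and 1.92.

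In a list of 7 regulators, 2 of 5 counted genes were higher and 0 lower (against 4.42% and 6.95% of all genes) at E15, 3 of 7 counted genes were higher and 0 lower (against 8.85% and 12% of all genes) at E19 and 3 of 6 counted genes were higher and 0 lower (against 10.4% and 16.2% of all genes) in the pup in the same comparison. Trp63 had log2 ratios of 5.96, 6.17 and 7.61, and Grhl3, a grainyhead factor of the epidermal barrier, 3.13, 4.102 and 6.26. Trp63 is a squamous marker too, so its ratios and its place in the counts follow the labels. Over the adult esophageal ranges, suprabasal over basal, 2 of 6 counted genes were higher and 2 lower (against 19% and 20.5% of all genes). Grhl3 had a log2 ratio of 4.93 (3.37 to 7.22) and Grhl1 one of 4.49 (3.12 to 6.38), where Dsp had 2.61 (2.401 to 2.82). Grhl2 went the other way, at −1.41 (−2.13 to −0.69). Trp63 was lower in suprabasal cells, at −2.90 (−3.26 to −2.55), as was Dsg2, at −2.68 (−3.79 to −1.67).

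Outside the epithelium, Jup was the member with the most signal over the immune level. In 157 endothelial cells, whose junctions carry plakoglobin with VE-cadherin, it was at 144 CPM (127 to 163) and was seen in 65.0% of cells, against 36.7 CPM (30.8 to 43.3) and 26.0% in immune cells, at median depths of 9365 and 8266.5 UMIs. Thinned to 5000 UMIs, the shares were 44.9% and 13.8%. Dsp (16.9 CPM), Dsg2 (4.49 CPM) and Perp (8.42 CPM) in endothelial cells were below their immune levels of 34.0, 13.6 and 21.0 CPM.

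The second stromal label, 139 cells with mesothelial markers summing to 2561 CPM, had Jup at 93.8 CPM (78.2 to 112) and Dsp at 49.9 (38.7 to 63.4), beside 34.0 (28.4 to 40.4) for Dsp in immune cells. Smooth muscle cells had Pkp2 at 6.91 CPM (5.44 to 8.66) and Jup at 43.2 (39.4 to 47.3), where immune cells had Pkp2 at 2.13 CPM (0.918 to 4.19).

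**Figure D5:**
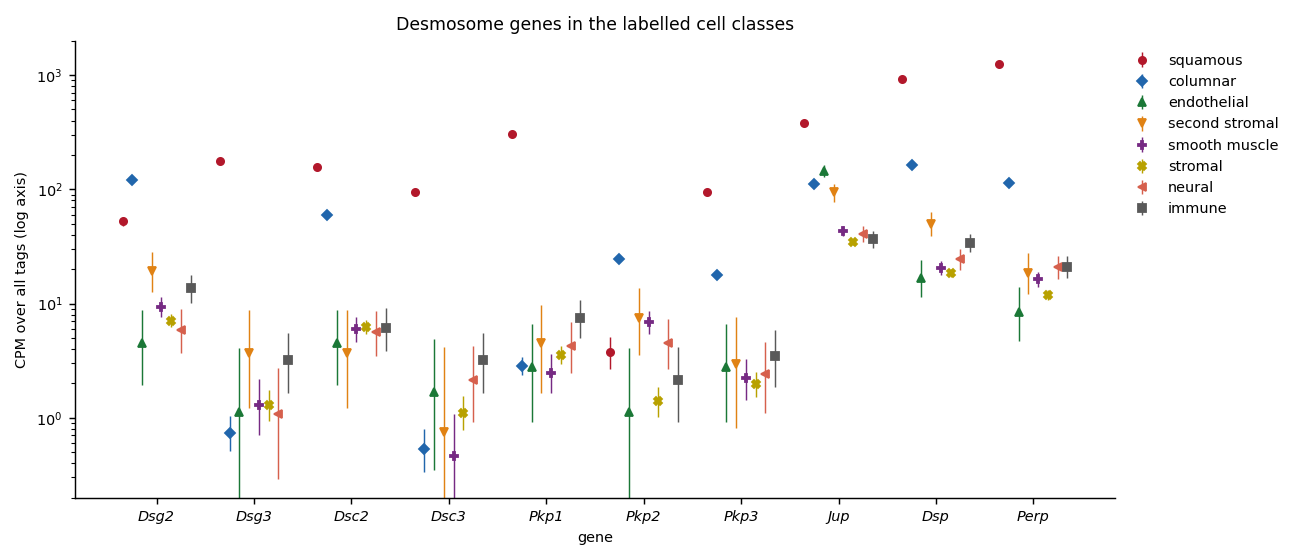
CPM of each member over all tags on a logarithmic axis in 8 labelled cell classes, 1 pooled sample each, with exact 95% Poisson bars cut at the foot of the axis. Squamous cells have the highest value of every member but Dsg2 and Pkp2, where columnar cells do, and among the other classes Jup in endothelial cells stands out at 144 CPM.

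Likeness was measured as Pearson's r of log2(CPM + 10) over 16 epithelial groups of at least 20 cells (label, region and stage), among 12324 genes with at least 100 UMIs. The groups share 1 sequencing pool and fall into 9 squamous and 7 columnar groups, so a high r can come from that contrast alone, and no p is given. Dsg3 and Pkp1 had an r of 0.97, Pkp1 and Perp 0.97, and Dsp and Jup 0.96. Dsg2 and Pkp2 had an r of 0.63 with each other, and Dsg2 and Dsg3 had −0.52.

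Serpinb5 was among the 3 genes most like Dsp (0.97), Dsg3 (0.97), Pkp1 (0.99) and Perp (0.98). The gene nearest to Dsg3 was Krt5 (0.98), to Dsc3 Lgals7 (0.98), to Dsp Sfn (0.97) and to Jup Dmkn (0.97). The nearest to Dsc2 was Rnh1 (0.91) and to Pkp3 Tmem65 (0.95). Dsg2 and Pkp2 had other nearest genes, Hif3a (0.94) for Dsg2 and Hebp1 (0.94) for Pkp2. Ranked by Spearman's rho instead, the nearest gene was another for every member but Dsg2, and Serpinb5 was not among the first 3 for Dsp, Dsg3, Pkp1 or Perp.

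By the GENCODE M21 annotation, on the GRCm38 build that the counts used, the 4 cadherin genes among the members lie on chromosome 18. Dsc3 (19960930 to 20002351) and Dsc2 (20030633 to 20059554) lie on the minus strand and Dsg3 (20510274 to 20547459) and Dsg2 (20558074 to 20604521) on the plus strand. Between E15 and adult squamous cells the adjacent Dsg3 and Dsg2 had ratios of opposite direction in both regions, while the adjacent Dsc3 and Dsc2 were both higher in the adult. The other members are spread over the genome, with Pkp1 on chromosome 1 (135871395 to 135919207), Pkp3 on chromosome 7 (141078218 to 141090510), Perp on chromosome 10 (18845020 to 18857073), Jup on chromosome 11 (100368958 to 100397763), Dsp on chromosome 13 (38151294 to 38198577) and Pkp2 on chromosome 16 (16213318 to 16272712).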

How the data were processed

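Cells of 11 region and stage tags were measured in 1 pooled gene expression library. The deposited raw UMI counts were made by the authors with Cell Ranger 6.1.1 on the 10x mouse reference (GRCm38), and the authors filtered cells by genes, UMIs and mitochondrial share. The deposited table also gave each cell's percent of mitochondrial UMIs, tag and class label, the last from the authors' clustering of the same counts. Tags stand for pooled mice, so p-values were not computed. No doublet caller was run here.

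Counts were summed over the cells of each class, region and stage with pandas 2.3.3, numpy 2.4.6 and scipy 1.17.1 in Python 3.11.15 and divided by all UMIs of the group, so a gene's CPM also depends on the other genes of that group. Groups of at least 20 cells were compared by log2 ratio, with 1 UMI added to each sum. Intervals were Poisson or Clopper-Pearson and covered counting error only, and a sum of 0 was bounded at 3 UMIs. The method was tested on simulated counts for the GE-SCJ at E19 (9465 genes), where 96.2% of changed genes were called in the right direction and 3.12% of unchanged genes were called. These counts were Poisson draws without spread between cells or mice, and every planted change lay past the 2-fold ratio. Smaller changes and the effect of such spread were not tested.

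The genes named were all 10 members, 3 lists (other desmosome and envelope genes, keratins with adherens junction genes, and regulators) and the 3 genes most like each member. Members and lists were chosen with earlier results of these data known. Dsg1c and Dsg4 of the first list were not analysed here. Alternatives covered the averaging of cells, cell filters, library size, subtraction of the immune level, marker-checked labels, the added UMI, the first squamous label alone, the score's split, the thinning depth and the rank correlation.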

Additional observations from a re-analysis of the deposited data

Results flagged for a closer look

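Ratios were compared over 13 pairs of comparisons (the same stage step or keratin ranges in 2 regions, or squamous over columnar at 2 stages) and 10 members, 130 in all. In 4 of them, each a stage step in 2 regions, the ratios had opposite directions and both intervals left out 0. Each region and stage was 1 pooled sample, and the difference between the regions was not tested.

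In squamous cells from E19 to the pup, Dsg3 had a log2 ratio of −0.83 (−1.13 to −0.54) in the esophagus and 1.36 (0.85 to 1.91) in the GE-SCJ, a difference of 2.20. For Perp the same step was −0.88 (−1.02 to −0.74) in the esophagus and 0.91 (0.74 to 1.09) in the GE-SCJ, a difference of 1.79. With the first squamous label alone the esophageal ratios were −0.11 for Dsg3 and −0.25 for Perp.

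In columnar cells Dsc2 went in opposite directions at both steps. From E15 to E19 its log2 ratio was 0.32 (0.11 to 0.54) in the stomach and −0.41 (−0.77 to −0.04) in the GE-SCJ, a difference of −0.73. From E19 to the pup it was −0.34 (−0.49 to −0.18) in the stomach and 0.29 (0.08 to 0.50) in the GE-SCJ, a difference of 0.63. All 4 ratios stayed within 2-fold.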

How the results depend on the processing

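Of 340 counts of members recomputed under the alternatives, 310 stayed within 1.5 times the reported count and 30 did not. Of 1780 log2 ratios, 1639 stayed inside their interval, 139 left it, and 2 of at least 2-fold changed sign. Smaller ratios that changed sign were sorted by their interval alone. Apart from the sums of 0 described below, the cause of these shifts was not tested. With the mean of each cell's CPM, GE-SCJ squamous over columnar cells of the pup had 1 lower member (reported 2), esophagus over stomach at E19 had 1 lower (2), the esophagus had 2 higher at E19 over E15 (4), the GE-SCJ had 3 higher at E19 over E15 (1), 1 higher and 2 lower in the pup over E19 (3 and 1) and 1 lower in the adult over the pup (2), and stomach columnar cells had 2 higher at E19 over E15 (1). With cells kept from 1000 UMIs on and up to 10% mitochondrial share, the GE-SCJ had 2 lower in the pup over E19 (1). With the 1% of cells richest in a gene left out, esophagus over stomach had 1 lower in the pup (2), the esophagus had 1 higher in the pup over E19 (0) and 2 lower in the adult over E15 (1), the GE-SCJ had 2 lower in the pup over E19 (1), stomach columnar cells had 1 lower in the pup over E19 (0), and GE-SCJ columnar cells had 2 lower at E19 over E15 (0) and 1 higher in the pup over E19 (0). With mitochondrial, ribosomal and hemoglobin genes left out of the library size, GE-SCJ squamous over columnar cells of the pup had 1 lower (2).

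With the immune level of the same stage subtracted, the esophagus had 1 lower member at E19 over E15 (0), the GE-SCJ had 2 lower in the pup over E19 (1) and 1 lower in the adult over the pup (2), stomach columnar cells had 3 lower at E19 over E15 (0) and 1 lower in the pup over E19 (0), and GE-SCJ columnar cells had 3 lower at E19 over E15 (0) and 0 lower in the pup over E19 (1). Under this subtraction the log2 ratio of Pkp2 in the GE-SCJ, adult over pup, was 0.37 (reported −1.21), and that of Pkp1 in stomach columnar cells, E19 over E15, was −1.31 (reported 1.45). A level under the immune level became a sum of 0 here. The −1.31 equals the value that sums of 0 in both groups give, through the 1 UMI added and the unequal totals. It therefore shows no change in the direction of Pkp1. The lower counts of columnar cells at E19 over E15 can arise in the same way. With labels checked by markers, the esophagus had 2 lower in the adult over E15 (1). With 0.5 UMI added, stomach columnar cells had 2 higher at E19 over E15 (1). With the first squamous label alone, the esophagus had 5 higher in the adult over the pup (8), the GE-SCJ had 2 lower in the pup over E19 (1), and, in an alternative added after seeing the data, esophagus over stomach had 1 lower in the pup (2). With the adult cells split into 2 ranges in place of 3, the esophagus had 2 lower suprabasal members (1). With cells thinned to 2000 in place of 5000 UMIs, 108 of 150 percentages of cells with a UMI left the interval of the reported value, since fewer UMIs per cell were kept. Under Spearman's rho, 5 of 33 likenesses fell under 0.8. No paired analysis was possible because each region and stage was 1 pooled sample.

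Counting depth limits Pkp2 in squamous cells and Dsg3, Dsc3 and Pkp1 in columnar cells, where sums were of few UMIs. The adult held only 6 immune cells, so the immune level of that stage is imprecise.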

Other observations

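Some epithelial cells carried a tag of the region where the other epithelium prevails. Squamous cells with a stomach tag numbered 1, 4 and 7 at E15, E19 and pup, with the members summing to 1519, 1502 and 2401 CPM. Columnar cells with an esophagus tag numbered 9, 20, 10 and 7 from E15 to the adult, with the members summing to 440.1, 560.2, 585 and 672 CPM. In the 20 columnar cells of the E19 esophagus, Dsg3 made up 15.4% (6.88 to 28.1) of the UMIs of Dsg2 and Dsg3, and Pkp1 made up 19.5% (8.82 to 34.9) of the plakophilin UMIs. Both shares were above those of the columnar groups of GE-SCJ and stomach, which reached 0.651% for Dsg3 and 8.96% for Pkp1. Each rests on 8 UMIs, and the Pkp1 interval overlapped that of GE-SCJ columnar cells at E15 (3.36 to 18.5). Dsc3 did not follow, with 0 of the 28 UMIs of Dsc2 and Dsc3 (interval 0% to 12.3%).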
